A study of Mus musculus with 6 samples.

Results

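Autophagy is the route by which a cell wraps cytoplasm, damaged organelles or protein aggregates in a double membrane and delivers them to the lysosome. A kinase complex built on ULK1 starts the membrane, a class III PI3-kinase complex marks it with a lipid, and ATG2, ATG9 and WIPI proteins supply and position more membrane. Conjugation enzymes then attach proteins of the ATG8 family (LC3 and GABARAP) to that lipid membrane, cargo receptors tie the load to them, and tethers such as EPG5 bring the finished vesicle to the lysosome. Microglia are the macrophages that reside in brain tissue, and there parts of the same machinery also act on engulfed material.

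The 40 genes described here encode that core machinery, were chosen by name as known members of the pathway, and were all found by symbol among the 24956 gene rows of the count table. The RNA was bulk RNA of flow-sorted microglia, taken from 3xTg-AD mice aged 7 months. These mice carry human APP and MAPT transgenes, driven in neurons by Thy1 regulatory sequence and linked to inherited dementia, and mice of both groups share the whole 3xTg-AD genotype. One group was treated with an antibody that binds NK1.1, a receptor of natural killer (NK) cells, and removes those cells, at 25 µg every 4 days for 4 weeks, and the other was given an isotype control antibody. Libraries of the first group are called treated, or anti-NK1.1 1 to 3. Each group had 3 libraries, and the labels do not say whether a library came from 1 animal or a pool, so p-values measure the spread between these libraries. The comparison asks how microglial transcripts differ once NK cells are depleted.

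Gene counts came to 26893620 to 36098252 per library, the labels do not give the markers of the sort, and 14520 genes were tested. Levels are given as CPM, counts scaled to a common library total with TMM factors, changes are log2 ratios of anti-NK1.1 against isotype from edgeR's quasi-likelihood fit, and ± after a change is its standard error (SE). The 8 microglial marker genes summed to 27714 to 32144 CPM in isotype and 24630 to 32399 CPM in treated libraries, and none of them was at 0 in any library. The 10 neutrophil markers were also abundant, at 73374 to 101095 CPM in isotype libraries and at 32468, 32881 and 141171 CPM in treated libraries 1 to 3. The 6 NK cell markers summed to 82.1 to 128 CPM and 37.9 to 72.4 CPM. In bulk RNA, fewer cells of a type and less RNA per cell cannot be told apart.

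RefSeq promoter windows on GRCm38.p6 were found for 33 of the 40 genes. The 250 bases before the start site are shown for 4 of them. Gabarapl1 and Wipi1 are printed because they separate the groups in opposite directions, Sqstm1 because its level is the steadiest, and Atg3 because its window holds a pair of E-boxes. Capitals mark the GC box GGGCGG or its reverse complement in the first 3, and the E-box CACGTG in Atg3. The windows are chr6:129532942-129533191 (plus strand), chr11:109611390-109611639 (minus), chr11:50210821-50211070 (minus) and chr16:45158579-45158828 (plus).
Gabarapl1: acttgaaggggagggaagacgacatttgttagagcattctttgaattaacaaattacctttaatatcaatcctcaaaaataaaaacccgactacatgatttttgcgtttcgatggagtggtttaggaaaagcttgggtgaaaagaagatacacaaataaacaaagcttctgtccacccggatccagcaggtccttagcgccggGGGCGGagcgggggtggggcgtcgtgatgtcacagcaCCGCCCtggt
Wipi1: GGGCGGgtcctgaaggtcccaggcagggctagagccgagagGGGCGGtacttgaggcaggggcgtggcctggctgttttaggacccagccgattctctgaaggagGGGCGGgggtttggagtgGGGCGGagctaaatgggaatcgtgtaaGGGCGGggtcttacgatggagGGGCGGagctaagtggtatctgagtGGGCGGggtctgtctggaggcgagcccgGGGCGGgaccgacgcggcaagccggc
Sqstm1: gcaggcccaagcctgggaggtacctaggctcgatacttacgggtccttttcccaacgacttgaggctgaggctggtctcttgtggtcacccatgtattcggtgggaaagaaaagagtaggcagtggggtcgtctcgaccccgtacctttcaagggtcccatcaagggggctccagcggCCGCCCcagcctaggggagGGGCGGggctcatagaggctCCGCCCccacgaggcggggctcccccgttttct
Atg3: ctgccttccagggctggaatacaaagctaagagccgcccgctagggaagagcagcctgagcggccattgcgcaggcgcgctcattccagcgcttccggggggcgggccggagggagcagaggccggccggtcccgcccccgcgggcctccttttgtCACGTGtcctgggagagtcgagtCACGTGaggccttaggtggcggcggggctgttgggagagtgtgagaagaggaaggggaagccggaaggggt

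Wipi1 had 8 GC boxes in its 250 bases, Sqstm1 had 3 and Gabarapl1 had 2. The Wipi1 window lies within the gene span given below (109573331 to 109611967). Its bases thus precede the RefSeq start site but lie inside that span. Over windows of 300 bases (250 before and 50 after the start site), both strands searched, 23 of the 33 members (69.7%) held a GC box. That share was 38.2% of all genes with a window and 66.1% of the tested genes. E-boxes lay in the windows of 4 members, Atg3, Atg5, Atg7 and Atg14 (12.1% of members, against 8.09% of all genes and 11.3% of tested genes). The longer CLEAR sequence, which contains the E-box and is known as a site of TFEB, was in none of the 33. It was in 0.37% of all genes and 0.73% of tested genes. Only its exact letters were searched, and at shares this low a lack of matches among 33 members does not show that such sites are missing. The letters CCAAT were in 9 members (27.3%), against 41.1% of all genes and 42.4% of tested genes. Among the 42 member windows, 66.7% were rich in CpG, with over 50% GC and a ratio of observed to expected CpG above 0.6, against 33.3% of all windows and 61.2% of those of tested genes. For the GC box, the E-box and CpG, the members' shares lay closer to those of tested genes than to those of all genes. A match is a description of the letters and not a binding site.

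The machinery spanned a wide range of levels. Per kilobase of transcript, a scale that allows genes to be compared, Gabarap was the most abundant member, at 421 ± 77.6 CPM per kb in isotype and 499 ± 170 in treated libraries (SD, n = 3 each). Sqstm1, the cargo receptor p62, came next at 194 ± 20.8 and 189 ± 3.9 CPM per kb. Map1lc3a followed at 95.6 ± 36.7 and 131 ± 33.6, and Map1lc3b at 76.4 ± 5.21 and 86.7 ± 16.5 CPM per kb. The values of Map1lc3a and Map1lc3b overlapped in isotype libraries, while in treated libraries Map1lc3a (110.6 to 169.3) lay above Map1lc3b (71.7 to 104.4). At the other end were Atg2b, with 0.697 ± 0.29 and 0.708 ± 0.299, and the tether Epg5, with 0.455 ± 0.322 and 0.538 ± 0.514 CPM per kb. The 6 most abundant members had the same order of mean level in both groups. Gabarapl1 moved from place 13 to place 9, and Tax1bp1 from place 7 to place 13.

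**Figure D1:**
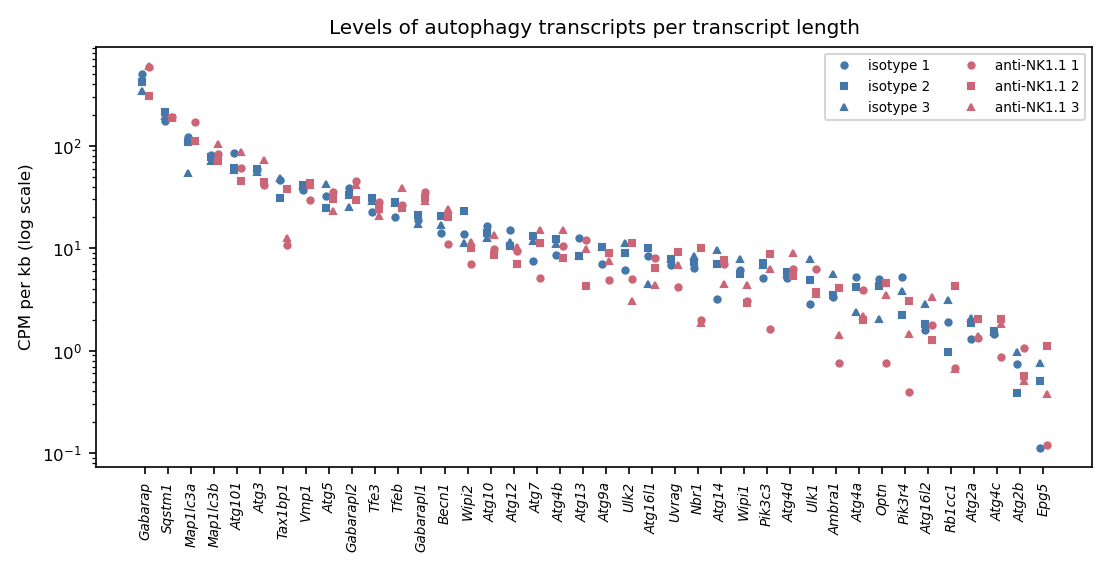
Level of each autophagy transcript in CPM per kb of transcript (log scale), genes ordered by the isotype mean. Each symbol is 1 library, blue for isotype and red for anti-NK1.1. Gabarap and Sqstm1 lie at the top in every library, and Nbr1, Tax1bp1 and Pik3r4 show wide gaps between the treated libraries.

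No member passed edgeR's threshold of an adjusted p under 0.05 over all tested genes, where the smallest adjusted p among members was 0.727. The share called over all genes was also 0%. DESeq2 called no member, while it called 0.825% of the genes to which it gave an adjusted p, and neither limma fit called a member. At an unadjusted p under 0.05, edgeR had 2 members, Gabarapl1 (higher) and Tax1bp1 (lower), or 5% of members, where 6.54% of all tested genes had such a p (2.74% higher and 3.8% lower). For 3 members (7.5%) the groups did not overlap, namely Gabarapl1 (higher) and Wipi1 and Atg12 (lower), where 15.3% of all tested genes were so separated (7.73% higher and 7.59% lower). Both shares were below those of the tested genes. Of the 40 members, 27 (67.5%) had a log2 change under 0, with a median of -0.13, while 49.1% of all tested genes did, with a median of 0.01. With per-library correction for transcript length and GC content, 21 members were above 0 and the median was 0.01. Over the 40 members, that correction turned the trend of log2 change with length around and did not remove it. Spearman's rho was -0.12 before it and 0.24 after it.

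**Figure D2:**
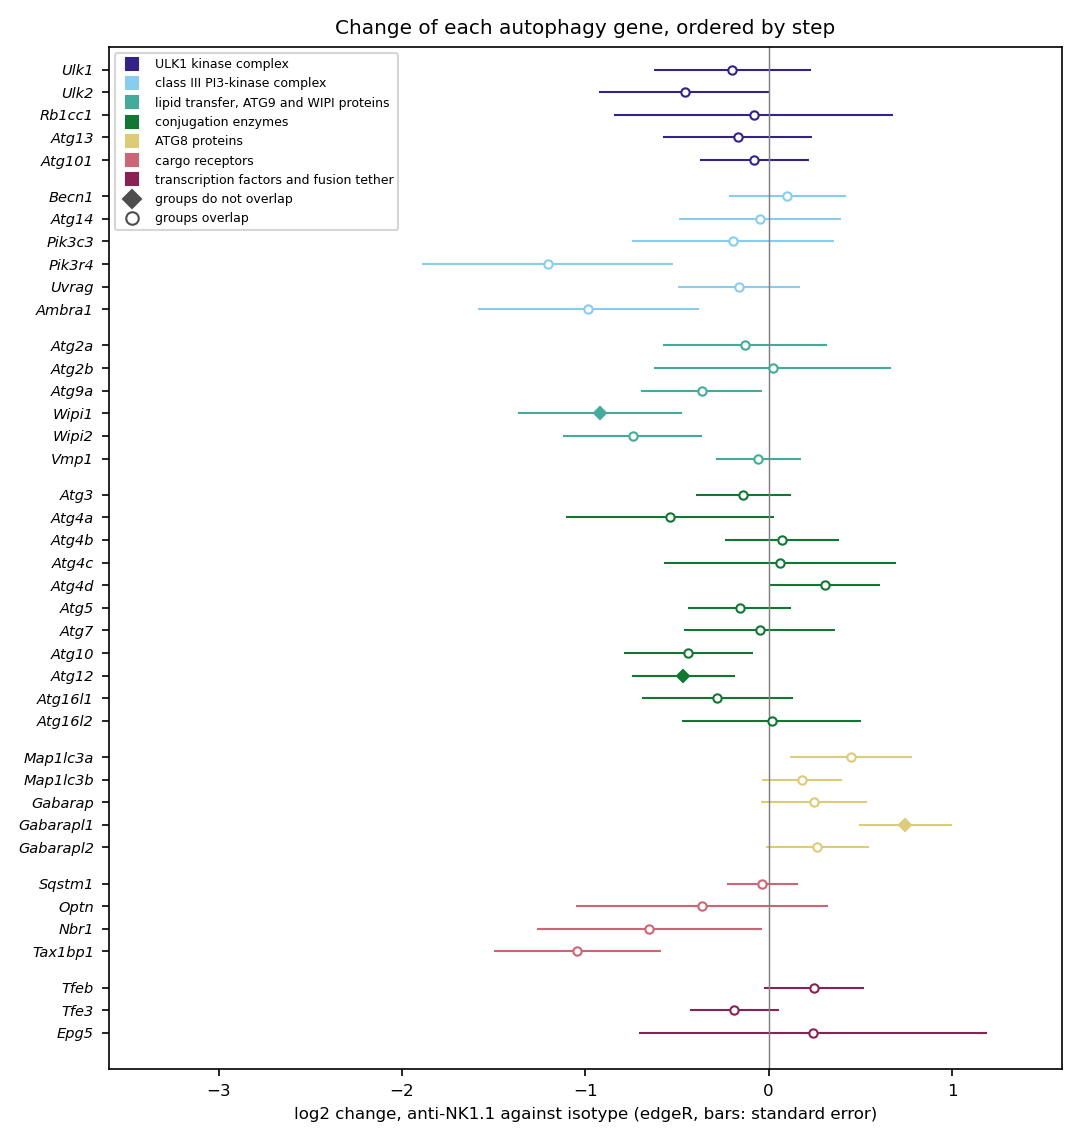
Log2 change of each autophagy gene, anti-NK1.1 against isotype, with its standard error from edgeR (n = 3 per group). Filled diamonds mark the 3 genes whose groups do not overlap, Gabarapl1 above 0 and Wipi1 and Atg12 below it. The ATG8 genes all lie above 0 and the ULK1 complex genes all below, but several of them change sides under other settings: Gabarap, Map1lc3b, Gabarapl2, Ulk2 and Rb1cc1 without anti-NK1.1 1 and 3, Map1lc3a, Rb1cc1 and Atg13 with the length and GC correction, Atg101 with limma-voom, and each ULK1 complex gene but Ulk2 when some single library is left out.

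In the ULK1 kinase complex, which receives the nutrient signal and starts a vesicle, all 5 genes had log2 changes below 0 (median -0.17), but none of them stayed below 0 in every alternative. Ulk2 and Rb1cc1 were at 0.35 and 1.11 without anti-NK1.1 1 and 3, Ulk1 and Rb1cc1 at 0.22 and 0.39 without isotype 3, and Atg13 and Atg101 at 0.074 and 0.14 without isotype 1. Rb1cc1 and Atg13 were also above 0 with the length and GC correction, and Atg101 with limma-voom. No gene of the complex separated the groups. Ulk2 (chromosome 11, 61775649 to 61855073, GRCm38), a kinase related to ULK1, had the smallest p of the complex. It had 35.0, 51.2 and 65.3 CPM in isotype libraries 1 to 3 and 28.4, 64.2 and 17.5 CPM in treated libraries 1 to 3. Anti-NK1.1 2 thus lay inside the isotype range, and the other two below it. The log2 change of Ulk2 was -0.46 ± 0.47 (edgeR adjusted p = 0.823). Ulk1 (chromosome 5, 110784488 to 110810097), the kinase itself, had 14.95, 25.8 and 40.7 CPM against 32.9, 19.6 and 18.5 CPM. Its treated libraries all lay within the isotype range (-0.20 ± 0.43, edgeR adjusted p = 0.920). Rb1cc1, which encodes the scaffold FIP200, was at 14.4, 7.44 and 23.6 CPM and then at 5.19, 32.7 and 5.02 CPM, so that anti-NK1.1 2 was the highest library and the other two the lowest. The adaptors Atg13 and Atg101 had log2 changes of -0.17 ± 0.41 and -0.08 ± 0.30.

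The class III PI3-kinase complex, which makes the lipid PI3P on the growing membrane, had 5 of 6 genes below 0 (median -0.18). Becn1 (chromosome 11, 101285952 to 101302286), the scaffold beclin 1, had 61.9, 89.8 and 73.9 CPM in isotype and 47.6, 88.4 and 106 CPM in treated libraries. Anti-NK1.1 1 was below the isotype range and anti-NK1.1 3 above it, and the log2 change was 0.10 ± 0.32 (edgeR adjusted p = 0.947). Exons of Becn1 share 3104 bases with Cntd1 on the other strand, and the library kit does not mark strand. Pik3r4 (chromosome 9, 105642978 to 105687657), the regulatory subunit VPS15, had the largest decrease in value of any member. It was at 25.1, 10.6 and 18.0 CPM and then at 1.88, 14.5 and 6.9 CPM. The change came to -1.2 ± 0.69 (log2, edgeR adjusted p = 0.743). Only anti-NK1.1 2 lay within the isotype range. Ambra1, which positions beclin 1 for activation, showed the same layout, with 17.3, 18.3 and 28.9 CPM against 3.95, 21.3 and 7.33 CPM. The catalytic subunit Pik3c3 (VPS34) had a log2 change of -0.19 ± 0.55. Atg14 and Uvrag, which define separate versions of the complex, had -0.04 ± 0.44 and -0.16 ± 0.33. Uvrag holds stretches of over 95% identity to other transcripts, so its counts are less certain.

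Among the 6 genes that supply and read the membrane, 5 were below 0 (median -0.25), and Wipi1 separated the groups. Wipi1 (chromosome 11, 109573331 to 109611967), which binds PI3P on the forming vesicle, had 12.5, 11.6 and 16.2 CPM in isotype and 6.32, 6.05 and 8.93 CPM in treated libraries. Each anti-NK1.1 library was below each isotype library, and the means were 13.4 ± 2.44 and 7.1 ± 1.59 CPM (SD, n = 3 each). The log2 change was -0.92 ± 0.45, a level 1.89 times lower (edgeR adjusted p = 0.743). The groups also stayed apart with DESeq2 size factors, with quantile normalization and with the length and GC correction, where the log2 change was -0.97. Its relative Wipi2, which recruits the conjugation machinery, had 26.7, 44.8 and 22.0 CPM against 13.8, 19.6 and 22.4 CPM. Anti-NK1.1 3 overlapped isotype 3 there, and the log2 change was -0.74 ± 0.38. The lipid transfer genes Atg2a and Atg2b had -0.13 ± 0.45 and 0.02 ± 0.65, the scramblase Atg9a had -0.37 ± 0.33, and Vmp1, a membrane protein of the endoplasmic reticulum, had -0.06 ± 0.23. Vmp1 was at 104 to 115 CPM in isotype and 82.7 to 122 CPM in treated libraries. Exons of Atg2b share 383 bases with Gskip on the other strand. Gskip had 730 to 2140 counts per library, against 95 to 279 for Atg2b. Exons of Atg9a share 1832 bases with Gm29253 on the same strand, a gene without a row in the count table. The counts of Atg2b and Atg9a are thus less certain.

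The 11 conjugation genes, which charge and attach ATG8 proteins, had small changes, with 7 below 0 and a median of -0.14. Atg12 (chromosome 18, 46730144 to 46741580), the ubiquitin-like protein joined to ATG5, had 72.1, 49.6 and 54.6 CPM in isotype and 45.2, 33.2 and 49.4 CPM in treated libraries. The groups did not overlap, although anti-NK1.1 3 was close to isotype 2. Its log2 change was -0.46 ± 0.28 (edgeR adjusted p = 0.747). With DESeq2 size factors or quantile normalization the groups of Atg12 overlapped, and with the length and GC correction the change turned to 0.18. Its partner Atg5 had 76.5, 57.9 and 98.8 CPM against 83.0, 71.5 and 54.5 CPM (-0.16 ± 0.28). The E1-like enzyme Atg7 and the E2-like enzymes Atg3 and Atg10 had -0.05 ± 0.41, -0.14 ± 0.26 and -0.44 ± 0.35. Atg16l1, which places the ATG12-ATG5 conjugate on the membrane and is also used on engulfed vesicles, had -0.28 ± 0.41, and its relative Atg16l2 had 0.02 ± 0.49. The proteases that trim ATG8 proteins ranged from -0.54 ± 0.57 for Atg4a to 0.31 ± 0.30 for Atg4d, with Atg4b at 0.07 ± 0.31 and Atg4c at 0.06 ± 0.63. Atg4d shares 1405 exon bases with Kri1 on the other strand, and Atg4a has a near-identical annotated copy, so the counts of both are uncertain.

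**Figure D3:**
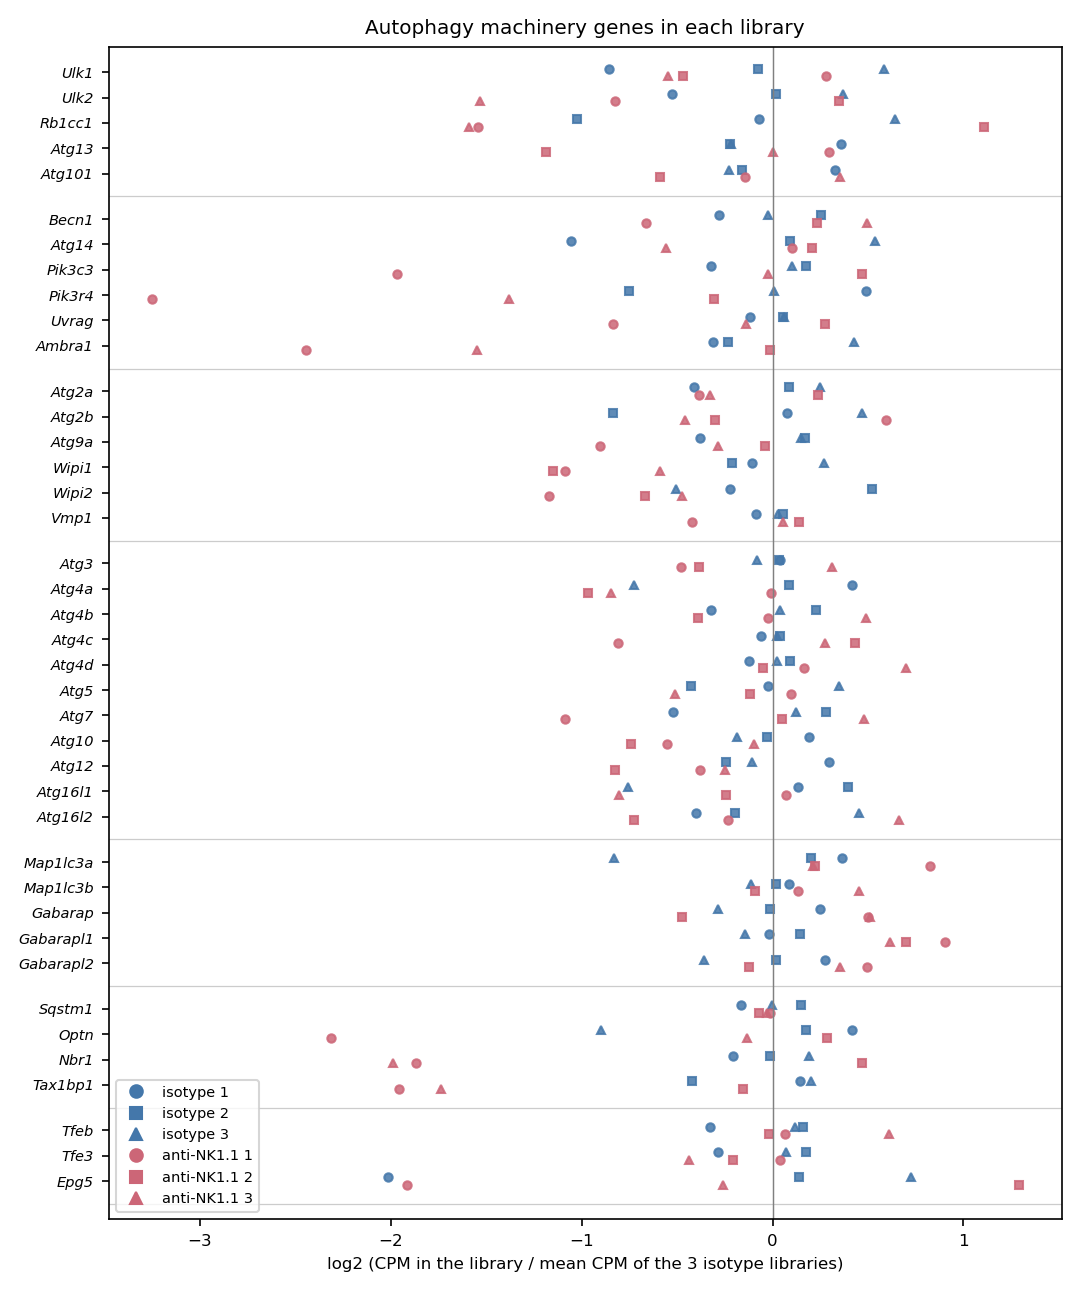
Level of each autophagy gene in each library as log2 of its CPM over the mean CPM of the isotype libraries, genes in order of their step. Blue is isotype, red is anti-NK1.1, and the symbol gives the library number. Circles and triangles in red (anti-NK1.1 1 and 3) lie far to the left of the red squares (anti-NK1.1 2) for Rb1cc1, Pik3r4, Ambra1, Nbr1 and Tax1bp1, while all red symbols of Gabarapl1 lie to the right of the blue ones.

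All 5 ATG8 genes had log2 changes above 0 (median 0.27), although Map1lc3a was below 0 with the length and GC correction, and Gabarap, Map1lc3b and Gabarapl2 were without anti-NK1.1 1 and 3. Gabarapl1 alone separated the groups. Gabarapl1 (chromosome 6, 129533160 to 129542346), a GABARAP-like protein that acts in vesicle closure and in fusion with the lysosome, had 34.0, 38.0 and 31.1 CPM in isotype libraries. In treated libraries it had 64.5, 55.9 and 52.6 CPM. Every anti-NK1.1 library was higher than every isotype library, and the spread was small in both groups, with means of 34.4 ± 3.48 and 57.7 ± 6.11 CPM (SD, n = 3 each). The log2 change was 0.75 ± 0.25, a level 1.68 times that of isotype (edgeR adjusted p = 0.727), and DESeq2 gave an adjusted p of 0.128. It lay between 0.66 and 0.82 when each library was left out in turn, was 0.71 without anti-NK1.1 1 and 3, and was 0.65 with the length and GC correction. Exons of Gabarapl1 share 570 bases with a non-coding transcript on the other strand, 1700101I11Rik, which had 57 to 150 counts per library against 1191 to 1914 for Gabarapl1.

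Markers of several other cell types were also higher in value in treated libraries, as was Gabarapl1, a gene that neurons express too. All 7 neuron markers were higher in value in treated libraries. Their sum was 78.8, 38.9 and 141 CPM in isotype and 570, 187 and 318 CPM in treated libraries, and 3 of the 7 separated the groups. Meg3 made up most of each sum, at 59.9, 28.3 and 100 CPM in isotype and 471, 144 and 253 CPM in treated libraries. All 5 oligodendrocyte markers were also higher in value, with sums of 213 to 308 CPM and 655 to 795 CPM. None of the neuron markers was at 0 in any library, although Gad1 was at 0.028 CPM in isotype 1. Border macrophage markers summed to 47.4 to 83.9 CPM and 96.3 to 171 CPM. Of those 5 genes, 4 were higher in value and Mrc1 was lower (-0.44 ± 0.82). Only Pf4 and Ms4a7 separated the groups, and Cd163 was at 0 in treated libraries 1 and 3. T cell markers summed to 8.15 to 15.9 CPM and 25.8 to 29.0 CPM. The astrocyte sums (102 to 172 CPM and 116 to 209 CPM) and endothelial sums (18.6 to 43.9 CPM and 16.3 to 59.1 CPM) overlapped between the groups. The part of these cells in the value of Gabarapl1 was not tested.

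The other ATG8 genes overlapped between groups. Gabarap (chromosome 11, 69991143 to 69994951) had 675, 564 and 466 CPM in isotype and 803, 410 and 811 CPM in treated libraries. Anti-NK1.1 1 and 3 were thus above the isotype range and anti-NK1.1 2 below it (0.25 ± 0.29, edgeR adjusted p = 0.850). Map1lc3b (chromosome 8, 121590361 to 121598760), the LC3 protein most used to follow autophagy, had 205, 196 and 179 CPM against 212, 182 and 264 CPM (0.18 ± 0.22, edgeR adjusted p = 0.852). Gabarapl2 had 65.6, 55.0 and 42.4 CPM against 76.6, 49.9 and 69.5 CPM (0.27 ± 0.28). Without anti-NK1.1 1 and 3, the log2 changes of Gabarap, Map1lc3b and Gabarapl2 turned to -0.47, -0.09 and -0.12. Map1lc3a was at 137, 122 and 59.9 CPM in isotype and 188, 124 and 123 CPM in treated libraries (0.45 ± 0.33), and isotype 3 was the lowest library. With the length and GC correction its change turned to -0.17. Processed pseudogenes with over 95% identity across 349 to 378 bases exist for Map1lc3b and Gabarapl2, so reads of those genes could be split.

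Summed per kb, ATG8 transcripts came to 762, 658 and 512 CPM per kb in isotype libraries and to 929, 547 and 885 CPM per kb in treated libraries. Gabarap made up 63.4% to 67.4% of that pool in isotype libraries and 64.0%, 55.4% and 67.8% in treated libraries 1 to 3. The pool was therefore largest in anti-NK1.1 1 and 3, while anti-NK1.1 2 lay between isotype 2 and 3. Gabarap and Map1lc3a have short transcripts (1351 and 1112 nt). Over all genes, short transcripts were relatively high in anti-NK1.1 1 and 3 (Spearman's rho of relative level with length -0.16 and -0.31). They were relatively low in anti-NK1.1 2 and isotype 3 (0.26 and 0.33). The part of transcript length in the size of the pool was not tested. Gabarapl1 was a small part of it, at 2.45%, 3.18% and 3.34% in isotype and 3.81%, 5.61% and 3.26% in treated libraries. As a share of the pool it overlapped between groups, since anti-NK1.1 3 was below isotype 3.

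**Figure D4:**
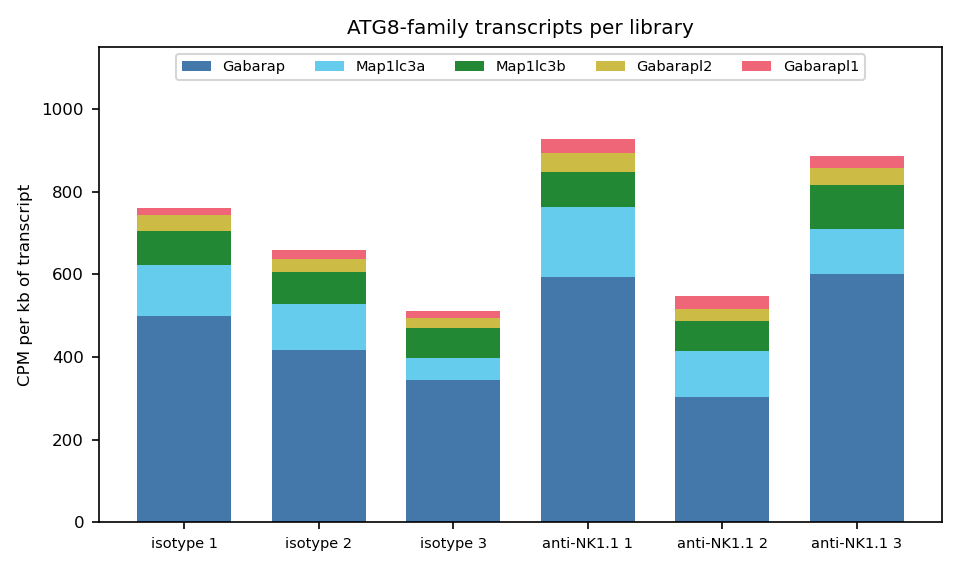
Stacked levels of the 5 ATG8-family transcripts in each library, in CPM per kb of transcript. Gabarap (dark blue) is the largest part of every bar, and the bars of anti-NK1.1 1 and 3 are the tallest, at 929 and 885 CPM per kb.

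The 4 cargo receptors, which hold ubiquitin-tagged or damaged cargo on one side and ATG8 proteins on the other, all had log2 changes below 0 (median -0.51), but Tax1bp1 alone stayed below 0 in every alternative. Sqstm1 was at 0.0032 among genes with a mean CPM of 5 or more and at 0.045 without isotype 2. Sqstm1 (chromosome 11, 50199366 to 50210827), the receptor p62, had 353, 438 and 394 CPM in isotype and 392, 377 and 388 CPM in treated libraries. The treated libraries all lay inside the isotype range, with a log2 change of -0.04 ± 0.19 (edgeR adjusted p = 0.969). Its coefficient of variation in treated libraries, 2.06%, was the lowest of any member. Tax1bp1 (chromosome 6, 52713729 to 52766780), a receptor for ubiquitinated and aggregated protein, had 152, 102 and 158 CPM against 35.4, 124 and 41.3 CPM. Anti-NK1.1 2 was inside the isotype range and the other two were below it, and the log2 change was -1.04 ± 0.45 (edgeR adjusted p = 0.743). Nbr1 (chromosome 11, 101552149 to 101581951), a relative of p62, had 30.5, 34.8 and 40.2 CPM against 9.63, 48.6 and 8.85 CPM, so that anti-NK1.1 2 was the highest of all 6 libraries. Its log2 change was -0.65 ± 0.61. Without anti-NK1.1 2, edgeR called Tax1bp1 (-1.84, adjusted p = 0.0384) and Nbr1 (-1.93, adjusted p = 0.0476), with 138 calls over all genes. Without anti-NK1.1 1 and 3 the values were -0.15 and 0.47. Optn, which encodes optineurin, was at 5.33 to 13.2 CPM in isotype and at 1.99, 12.1 and 9.05 CPM in treated libraries (-0.36 ± 0.69), and its change turned to 0.29 without anti-NK1.1 1 and 3 and to 0.091 without anti-NK1.1 1.

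Of the transcription factors and the tether, 2 of 3 were above 0. Tfeb (chromosome 17, 47737030 to 47792419), the transcription factor that drives lysosomal and autophagy genes, had 46.2, 64.9 and 62.9 CPM in isotype and 60.8, 57.2 and 88.4 CPM in treated libraries. The groups overlapped except for the higher anti-NK1.1 3, and the log2 change was 0.25 ± 0.27 (edgeR adjusted p = 0.841). With the length and GC correction the change was -0.08. Its relative Tfe3 had 74.3, 102 and 94.99 CPM against 93.2, 78.5 and 66.9 CPM (-0.19 ± 0.24). Epg5, the tether of autophagosome and lysosome and the longest transcript of the set at 9660 nt, had 1.09, 4.84 and 7.26 CPM against 1.17, 10.7 and 3.67 CPM. Its spread within each group exceeded the difference between the groups (0.24 ± 0.95).

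The treated libraries differed among themselves. For 7 members (17.5%), anti-NK1.1 1 and 3 were below every isotype library while anti-NK1.1 2 was not, and 12.7% of all tested genes had that layout. These were Ulk2, Rb1cc1, Pik3r4, Uvrag, Ambra1, Nbr1 and Tax1bp1, named after their values were seen, with transcripts of 3285 to 7607 nt. Of the 40 members, 19 were below every isotype library in anti-NK1.1 1, 11 in anti-NK1.1 2 and 13 in anti-NK1.1 3, where 32.7%, 22.5% and 30.5% of all tested genes were. Those above every isotype library numbered 7, 8 and 14, where 32.5%, 26.04% and 30.6% of all tested genes were. The coefficient of variation was larger among anti-NK1.1 than among isotype libraries for 31 members (77.5%), with medians of 32.2% and 21.7%. Among 10100 tested genes in the members' range of mean CPM it was larger for 61.9%, with medians of 31.3% and 24.7%.

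Transcript length moved with this pattern. The 13 longest members (4756 to 9660 nt) had a median log2 ratio to the isotype mean of -0.83, -0.01 and -0.46 in treated libraries 1 to 3. The 13 shortest (1112 to 2352 nt) had medians of -0.01, -0.38 and 0.21. The longest members were thus lowest in anti-NK1.1 1 and 3, and the shortest in anti-NK1.1 2. Over all genes the trend of relative level with transcript length (Spearman's rho across 14422 genes, as a description) was -0.01, 0.04 and 0.33 in isotype and -0.16, 0.26 and -0.31 in treated libraries. Over the 40 members that rho was -0.29, 0.07 and 0.67 in isotype and -0.31, 0.38 and -0.27 in treated libraries. The strongest trend over members was thus in isotype 3, which is part of the isotype mean used above. The group log2 change had a median of -0.16 in the 13 longest and -0.08 in the 13 shortest members. Tested genes of the same lengths had medians of -0.26 and 0.16. The members' medians became 0.17 in the 13 longest and -0.12 in the 13 shortest once length and GC were corrected for, so the order was reversed. With the length and GC correction, Nbr1 had -0.46, Ambra1 -0.88, Pik3r4 -1.1, Tax1bp1 -0.73 and Ulk2 -0.12, so their values were smaller in size but of the same sign, while Rb1cc1 and Uvrag turned to 0.28 and 0.17.

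**Figure D5:**
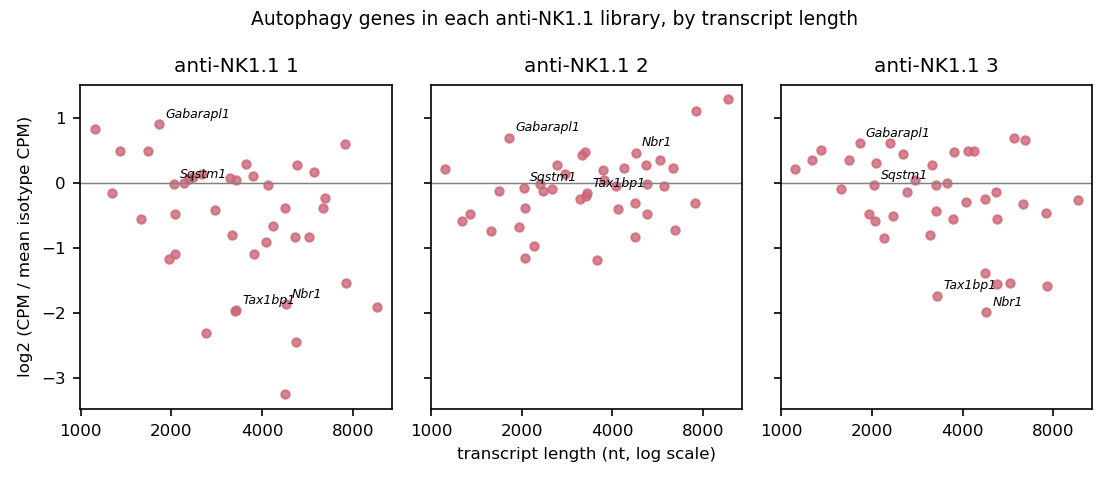
Log2 of the CPM in each anti-NK1.1 library over the mean isotype CPM, against transcript length (nt, log scale), for the 40 autophagy genes. Long transcripts such as Nbr1 lie well below 0 in anti-NK1.1 1 and 3 and above 0 in anti-NK1.1 2, Gabarapl1 is above 0 in all 3, and Sqstm1 stays near 0.

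Outside the core machinery, 59 of 60 further pathway genes were in the table and tested. None passed edgeR's threshold, and 35 were below 0 (median -0.16). Their changes with the length and GC correction are not given here. An unadjusted p under 0.05 was found for 6 (10.2%), all lower. Of all tested genes, 6.54% had such a p in either direction, and 3.8% were lower with it. The groups did not overlap for 11 (18.6%), all lower. Of all tested genes, 15.3% were so separated in either direction, and 7.59% were lower without overlap. The 14 genes of fusion with the lysosome included 4 of the 11, the SNAREs Snap29 and Ykt6, the adaptor Plekhm1 and the HOPS subunit Vps11. Vps11 had 52.3, 50.2 and 65.6 CPM in isotype and 29.0, 41.5 and 35.5 CPM in treated libraries, which gives -0.66 ± 0.27 (log2, edgeR adjusted p = 0.735). Plekhm1 and Snap29 had -1.004 ± 0.41 and -0.79 ± 0.39, and Ykt6 had -0.54 ± 0.25. Stx17, the SNARE on the finished vesicle, had 0.06 ± 0.74. Lamp2, a lysosomal membrane protein, had -0.29 ± 0.21, with 734 to 779 CPM in isotype and 555, 765 and 542 CPM in treated libraries. The small GTPase Rab7 had 0.04 ± 0.21.

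Of 20 regulators, Prkaa1 and Fnip1 separated the groups. Prkaa1, a catalytic subunit of the energy sensor AMPK, had 46.5, 35.1 and 56.8 CPM in isotype and 21.1, 30.4 and 12.7 CPM in treated libraries. Each anti-NK1.1 library was below each isotype library, with a log2 change of -1.11 ± 0.38 (edgeR adjusted p = 0.727). Fnip1, a partner of folliculin, had -1.2 ± 0.53. The kinase Mtor, which restrains autophagy, had 0.08 ± 0.55, its inhibitor Tsc2 had -0.44 ± 0.34, the TFEB relative Mitf had -0.58 ± 0.61 and Rubcn had -0.26 ± 0.51. Trp53inp1, a stress protein that binds ATG8 proteins, had 17.3, 25.0 and 29.6 CPM against 2.14, 9.37 and 7.49 CPM, and a log2 change of -1.92 ± 0.56 (edgeR adjusted p = 0.727). Wdr45, a WIPI protein, and the receptors Bnip3l, for mitochondria, and Ncoa4, for ferritin, also lay lower without overlap, at -0.51 ± 0.30, -0.46 ± 0.25 and -0.70 ± 0.46.

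Cybb, the NADPH oxidase subunit that takes part in LC3-associated phagocytosis, had 401, 365 and 536 CPM in isotype and 64.8, 231 and 164 CPM in treated libraries. The groups did not overlap, and the log2 change was -1.5 ± 0.41 (edgeR adjusted p = 0.727). Cyba, another oxidase subunit, went the other way in value (0.49 ± 0.30) and overlapped between groups. It had 1296, 1160 and 969 CPM in isotype and 1638, 937 and 2238 CPM in treated libraries. Cybb is also a gene of neutrophils and monocytes. The 5 monocyte markers summed to 1132 to 1404 CPM in isotype libraries and to 472, 540 and 1366 CPM in treated libraries. Among them, Ly6c2 and Plac8 overlapped between groups and made up most of the sum in anti-NK1.1 3 (838 and 436 CPM). Ccr2, Fn1 and F13a1 were lower without overlap, as Cybb was. Ccr2 had 84.6 to 162 CPM in isotype and 18.9 to 63.8 CPM in treated libraries, Fn1 had 60.0 to 151 and 15.6 to 20.2 CPM, and F13a1 had 133 to 260 and 24.5 to 108 CPM. The part of monocytes and neutrophils in the value of Cybb was not tested.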

How the data were processed

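The authors deposited 1 table of read counts per gene for the 6 libraries. Its name calls it normalized, yet it holds whole numbers whose totals differ between libraries. STAR 2.5.3a, Cufflinks 2.0, DESeq2 1.1 and build mm10 are listed in the submitters' processing notes. Which program counted reads, on which annotation and strand, is not given in the sources used here. Per the labels' protocols, SMART-seq v4 cDNA and Nextera XT libraries were made, which carry no molecular identifiers, so counting error is a lower limit of the error.

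Left out were 26 rows with a calendar date in place of the symbol, and 2 rows of reads in no feature or ambiguous (no feature: 53.3% to 57.4% of reads). Genes were filtered with filterByExpr, scaled with TMM and compared by edgeR 4.0.16 (quasi-likelihood F-test, two-sided, in R 4.3.3), Benjamini-Hochberg adjusted over 14520 genes. The SE is the change divided by the square root of F. With 3 against 3 libraries, an exact permutation test cannot go below p = 0.1. DESeq2 1.42.0 and limma 3.58.1 served as alternatives. The design foresaw counts or normalized values, and the count test was used. On simulated counts for this comparison (14520 genes), the test recovered 2.45% of genes with a log2 change of 1, 34.3% of those with 2 and 72.2% of those with 4.

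Length and GC are those of the APPRIS principal transcript in GENCODE M21 (GRCm38, the assembly of mm10), found for 99.3% of tested genes. The correction subtracts, per library, a spline fit on both. Copies were searched with BLAST 2.17.0 (at least 95% identity over 200 bases). The members and lists were chosen with earlier results of these data known. Values per library are given for members whose groups do not overlap, for the member of smallest p in each step, and for Ulk1, Becn1, Map1lc3b, Sqstm1 and Tfeb. Further pathway genes are named where the groups do not overlap, with 8 named whatever their values. Cyba was added beside Cybb, and other members with library values were chosen, after these values were seen.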

Additional observations from a re-analysis of the deposited data

How the results depend on the processing

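No alternative with all 6 libraries called a member over all genes. Calls over all genes were 132 with DESeq2, 4 with limma-voom and sample weights, and 0 to 138 when 1 library was left out, with 138 without anti-NK1.1 2. Members at an adjusted p under 0.05 numbered 0 to 2 and those at an unadjusted p under 0.05 0 to 8 over the fits that left out 1 library, against 2 with all 6. The 8 were without anti-NK1.1 2 and the 0 without anti-NK1.1 1, and leaving out any library but anti-NK1.1 2 left 0 members at an adjusted p under 0.05. Those at an unadjusted p under 0.05 numbered 5 with limma-voom, 5 with the length and GC correction and 1 without anti-NK1.1 1 and 3. Members that lay lower without overlap numbered 3 to 9 and those higher 1 to 5 when 1 library was left out, where fewer libraries make separation easier. The 9 lower and 5 higher were without anti-NK1.1 2, and 6 lay lower without isotype 3. Without anti-NK1.1 1 and 3 they were 11 and 8, and with the length and GC correction 4 and 2. With only genes at a mean CPM of 5 or more, with DESeq2 size factors, in DESeq2 and with quantile normalization, 1 member lay lower without overlap, Wipi1. For separation and for an unadjusted p under 0.05, shares of all tested genes are given here for the main fit only. The counts of members under the alternatives thus have no background beside them and cannot be read as above or below it. With the length and GC correction 21 members were above 0 and the median log2 change of members was 0.00997.

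The replicate block, in a paired fit, called 0 genes over all and changed no call, and it left 2 members at an unadjusted p under 0.05. Samples share only a number: deviations from the group means of same-numbered libraries correlated at 0.05, 0.03 and -0.004, and not every library correlated best with its own number. Where a direction turned, the cause was not tested. With only genes at a mean CPM of 5 or more, the sign turned for Sqstm1 (0.0032). With limma-voom and sample weights, the sign turned for Atg101 (0.033), Becn1 (-0.083), Atg4c (-0.10) and Epg5 (-0.32). With limma and quantile normalization, the sign turned for Atg14 (0.22), Atg2a (0.070) and Epg5 (-0.0029). Without anti-NK1.1 1 and 3, the sign turned for Ulk2 (0.35), Rb1cc1 (1.11), Atg14 (0.21), Pik3c3 (0.48), Uvrag (0.28), Atg2a (0.24), Atg2b (-0.30), Vmp1 (0.14), Atg4b (-0.39), Atg4d (-0.042), Atg7 (0.057), Atg16l2 (-0.72), Map1lc3b (-0.085), Gabarap (-0.47), Gabarapl2 (-0.12), Optn (0.29), Nbr1 (0.47) and Tfeb (-0.013). With the length and GC correction, the sign turned for Rb1cc1 (0.28), Atg13 (0.019), Atg14 (0.26), Pik3c3 (0.0011), Uvrag (0.17), Vmp1 (0.29), Atg3 (0.054), Atg5 (0.13), Atg7 (0.14), Atg12 (0.18), Map1lc3a (-0.17) and Tfeb (-0.085). With the replicate block, the sign turned for Atg14 (0.061), Atg4c (-0.027) and Atg16l2 (-0.050). With the replicate block and the length and GC correction, the sign turned for Rb1cc1 (0.071), Atg14 (0.32), Uvrag (0.14), Vmp1 (0.29), Atg3 (0.014), Atg5 (0.12), Atg7 (0.015), Atg12 (0.079), Map1lc3a (-0.17) and Tfeb (-0.10). When 1 library was left out, the sign turned in at least 1 case for Atg13 (-0.47 to 0.16), Atg101 (-0.35 to 0.14), Becn1 (-0.14 to 0.37), Atg4b (-0.20 to 0.26), Atg16l2 (-0.46 to 0.31), Epg5 (-0.86 to 0.81), Atg14 (-0.36 to 0.33), Atg2b (-0.38 to 0.33), Atg7 (-0.41 to 0.28), Sqstm1 (-0.092 to 0.045), Ulk1 (-0.51 to 0.22), Rb1cc1 (-1.57 to 0.39), Atg2a (-0.36 to 0.012), Atg5 (-0.33 to 0.052), Pik3c3 (-0.69 to 0.24), Uvrag (-0.45 to 0.084), Vmp1 (-0.16 to 0.10), Atg3 (-0.43 to 0.0052), Optn (-0.85 to 0.091) and Atg4c (-0.17 to 0.36), given with the lowest and highest value over the 6 fits. Gabarapl1 and Wipi1 kept their sign in every alternative run, as did Pik3r4, Ambra1, Atg9a, Wipi2, Atg4a, Atg10, Atg16l1, Tax1bp1 and Tfe3. The depth, with 3 counts worth 0.0784 to 0.120 CPM, was not a limit for any member, while the spread between libraries was (a common biological coefficient of variation of 0.640).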
